A study of Mus musculus with 6 samples.

Results

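Haemoglobin and red cell transcripts were followed in RNA from mesenchymal progenitors of mouse bone marrow, cells that had been sorted to exclude red cells. 9 genes were chosen by name: the adult beta globins Hbb-bs and Hbb-bt, the adult alpha globins Hba-a1 and Hba-a2, and Slc4a1, Bpgm, Klf1, Car2 and Ahsp. 8 of the 9 names matched a row of the deposited table of 25491 genes, and Ahsp, which encodes a chaperone of free alpha globin, is not analysed here. The 2 groups were 3 libraries from Lama4-/- mice, knockouts of the gene for laminin alpha 4, a chain found in the basement membranes of marrow vessels, and 3 libraries from wild type mice. Mice of both groups were C57BL/6J, 14 weeks old, and had received a sublethal dose of 7 Gy of radiation 6 weeks before the cells were taken. The progenitors were gated as CD45-, TER119-, CD31-, CD44- and SCA1- cells that carried the integrin chain CD51. The labels do not say how the Lama4 allele was made or whether each library came from 1 mouse, so that a p-value here reflects only how these libraries vary, which may be technical.

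Red cells carry oxygen on haemoglobin, a tetramer of paired alpha and beta globin chains that each hold a haem group. Globin mRNA accumulates in late erythroblasts until it dominates their RNA, and it persists in the reticulocytes that leave the marrow after their nucleus is lost. Erythroblasts mature in the marrow around macrophages, beside the stromal progenitors that were sorted here, and TER119, the antigen used to exclude them, is a surface molecule of late erythroid cells.

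The libraries held 12979711 to 15663957 counts in Lama4-/- and 6263830 to 13409177 in wild type. Lama4 had 0 counts in each Lama4-/- library and 45.4, 40.4 and 33.8 CPM in wild type replicates 1, 2 and 3. CPM are counts scaled to a common library total, here after TMM scaling. Lama4 was the only gene of 14465 tested that passed an adjusted p of 0.05 in edgeR's quasi-likelihood test (adjusted p = 0.0497). The mesenchymal markers Col1a2 and Col1a1, the chains of type I collagen, stood at 32389.6 to 74308 and 19637 to 69810.4 CPM in Lama4-/- libraries, against 42732 to 76834 and 31851 to 45028 CPM in wild type libraries. All 9 listed mesenchymal markers were tested, and 8 had a log2 fold change below 0, with a median of -0.92. In 5 of them every Lama4-/- library was below every wild type library, as for 12% of all tested genes. DESeq2 called the same 5 lower, where it called 3.39% of genes with an adjusted p as lower. In edgeR 0 passed the adjusted threshold. At an unadjusted p under 0.05 edgeR had 5 lower, where 8.34% of all tested genes were lower. After removal of a length trend 3 of the 9 were above 0 and the median was -0.13. Of the gate, the CD45 gene Ptprc was at 0 to 2.18 CPM in Lama4-/- and 0 to 4.09 CPM in wild type. The CD51 gene Itgav was at 44.5 to 73.0 CPM in Lama4-/- and 95.9 to 139 CPM in wild type, and Cd44 was at 53.2 to 82.0 and 70.6 to 152 CPM. In bulk RNA, fewer cells of a type and less RNA per cell cannot be told apart.

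The question put to the data was how these transcripts compare between Lama4-/- and wild type stroma recovering from radiation. The mean of all 8 measured genes was higher in Lama4-/- than in wild type, and the 4 globins had the largest difference, with group means between 3.01 and 3.69 times those of wild type. Together the 4 globins took 0.277% ± 0.130 of the counts of a Lama4-/- library and 0.0764% ± 0.0667 of a wild type library (SD, n = 3 each). None of the 8 passed the adjusted threshold in the edgeR test, which 0% of all tested genes passed on the higher side and 0.00691% on the lower. At an unadjusted p under 0.05 the edgeR test had 4 of the 8 on the higher side, where 4.45% of all tested genes were higher and 8.34% lower. DESeq2 called 1 of the 8 higher, where it called 0.996% of genes with an adjusted p as higher and 3.39% as lower. The spread between libraries of 1 genotype was wide: the highest wild type library held 6.36 to 7.58 times the CPM of the lowest for each globin.

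The share of counts on the 4 globins was 0.349% (95% Wilson interval 0.346 to 0.352), 0.127% (0.125 to 0.129) and 0.355% (0.352 to 0.358) in Lama4-/- replicates 1, 2 and 3. In wild type replicates 1, 2 and 3 it was 0.0245% (0.0236 to 0.0253), 0.0530% (0.0513 to 0.0549) and 0.152% (0.150 to 0.154). The genotypes overlapped, because wild type replicate 3 lay above Lama4-/- replicate 2. The intervals cover counting error only, and they are far narrower than the distances between libraries of 1 genotype. The highest library held 14.5 times the share of the lowest. No test was made of the share, and 3 libraries against 3 cannot give an exact permutation p below 0.10. Without wild type replicate 3 the wild type mean was 0.0388%.

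Hbb-bs and Hbb-bt are the adult beta globin genes of the haplotype carried by C57BL/6 mice. Hbb-bs (ENSMUSG00000052305, chr7:103826534-103828096, minus strand, GRCm38) had 1677, 647 and 1991 CPM in Lama4-/- replicates 1, 2 and 3, against 122, 272 and 777 CPM in wild type replicates 1, 2 and 3. Hbb-bt (ENSMUSG00000073940, chr7:103812524-103813996, minus strand, GRCm38) had 551, 208 and 530.4 CPM in Lama4-/-, against 39.6, 82.2 and 252 CPM in wild type. For both genes Lama4-/- replicates 1 and 3 were the highest libraries, wild type replicate 1 was the lowest, and wild type replicate 3 exceeded Lama4-/- replicate 2, so the groups overlapped. The log2 fold change of Hbb-bs, Lama4-/- over wild type, was 1.88 (SE 0.70), with an edgeR adjusted p of 0.332. That of Hbb-bt was 1.79 (SE 0.68), with an edgeR adjusted p of 0.343. In 8 of the 9 pairings of a Lama4-/- with a wild type library, Lama4-/- was higher for each beta gene.

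Hba-a1 and Hba-a2 are the paired adult alpha globin genes. Hba-a1 (ENSMUSG00000069919, chr11:32283511-32284465, plus strand, GRCm38) had 612, 225 and 631 CPM in Lama4-/- replicates 1, 2 and 3, against 47.1, 119 and 311 CPM in wild type replicates 1, 2 and 3. Hba-a2 (ENSMUSG00000069917, chr11:32296489-32297298, plus strand, GRCm38) had 437, 159.8 and 474 CPM in Lama4-/-, against 30.2, 95.9 and 229 CPM in wild type. The order of the libraries was that of Hbb-bs, with Lama4-/- replicate 2 again below wild type replicate 3. The log2 fold change was 1.62 (SE 0.68) for Hba-a1, with an edgeR adjusted p of 0.386. For Hba-a2 it was 1.59 (SE 0.71), with an edgeR adjusted p of 0.406. Lama4-/- was again higher in 8 of 9 pairings for each alpha gene.

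**Figure D1:**
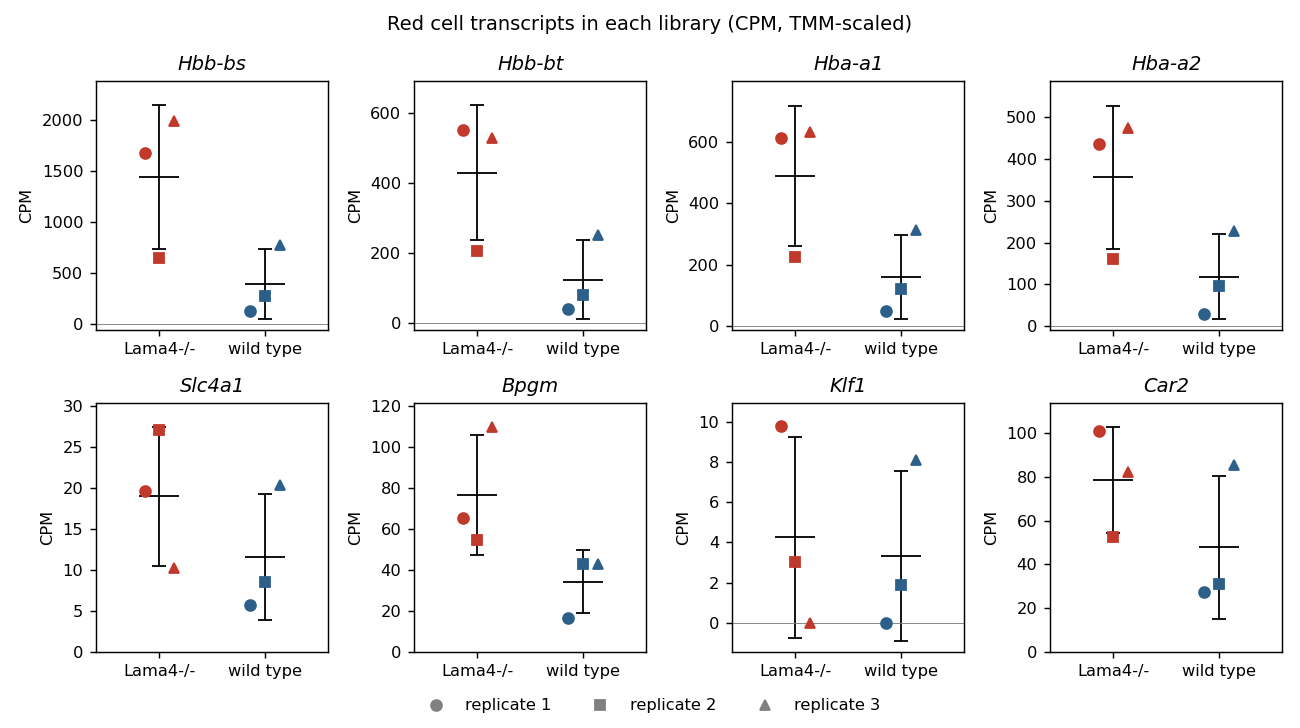
CPM of the 8 measured genes in each library, with its own linear axis per gene; Lama4-/- libraries are red and wild type libraries blue, symbols give the replicate number, and bars show the group mean and SD (n = 3). Each globin shows the same arrangement, with Lama4-/- replicates 1 and 3 high and wild type replicate 3 above Lama4-/- replicate 2; Bpgm alone has groups that do not overlap.

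The copies within each chain are nearly identical, which limits how reads can be assigned to one or the other. The coding sequences of Hba-a1 and Hba-a2 differ at 1 of 429 bases, and those of Hbb-bs and Hbb-bt at 1 of 444 bases. The stretches that hold the difference are shown because they are the coding bases by which a read can be told apart; they are taken from the GENCODE transcripts, run 5′ to 3′ over coding positions 351 to 410 of the alpha genes and 385 to 444 of the beta genes, and have the differing base in capitals.
Hba-a1: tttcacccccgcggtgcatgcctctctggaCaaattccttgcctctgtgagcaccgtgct
Hba-a2: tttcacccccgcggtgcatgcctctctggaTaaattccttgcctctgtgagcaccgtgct
Hbb-bs: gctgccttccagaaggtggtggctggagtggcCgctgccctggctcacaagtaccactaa
Hbb-bt: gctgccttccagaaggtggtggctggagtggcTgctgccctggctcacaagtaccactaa
Of the 75-base windows of the longest Hba-a2 transcript, 81% occur unchanged in Hba-a1, and of those of Hba-a1 62.2% occur in Hba-a2. For Hbb-bs and Hbb-bt the shared part was 64.3% and 56.6%. Reads were 75 bases long and how reads with several matches were counted is not given in the sources used here, so the level of each copy is uncertain. The sum over the copies of a chain does not depend on that split, unless such reads were dropped. The other 4 measured genes shared no 75-base window with any other gene.

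The make-up of the globin counts differed far less between libraries than their amount. Hbb-bs took 75.3%, 75.7% and 79.0% of the beta counts in Lama4-/- replicates 1, 2 and 3, against 75.5%, 76.8% and 75.6% in wild type replicates 1, 2 and 3. Hba-a1 took 58.4%, 58.4% and 57.1% of the alpha counts in Lama4-/-, against 60.9%, 55.4% and 57.6% in wild type. Both shares overlapped between genotypes, and their group means were 76.6% and 75.9% for Hbb-bs and 58.0% and 58.0% for Hba-a1. The alpha genes together had 47.1, 45.01 and 43.8 counts per 100 beta counts in Lama4-/-, against 47.9, 60.8 and 52.5 in wild type. Here the groups did not overlap, but Lama4-/- replicate 1 and wild type replicate 1 lay close together, and this ratio was not tested. Across all 6 libraries the alpha-to-beta ratio spanned 1.39-fold, while the globin share of all counts spanned 14.5-fold.

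**Figure D2:**
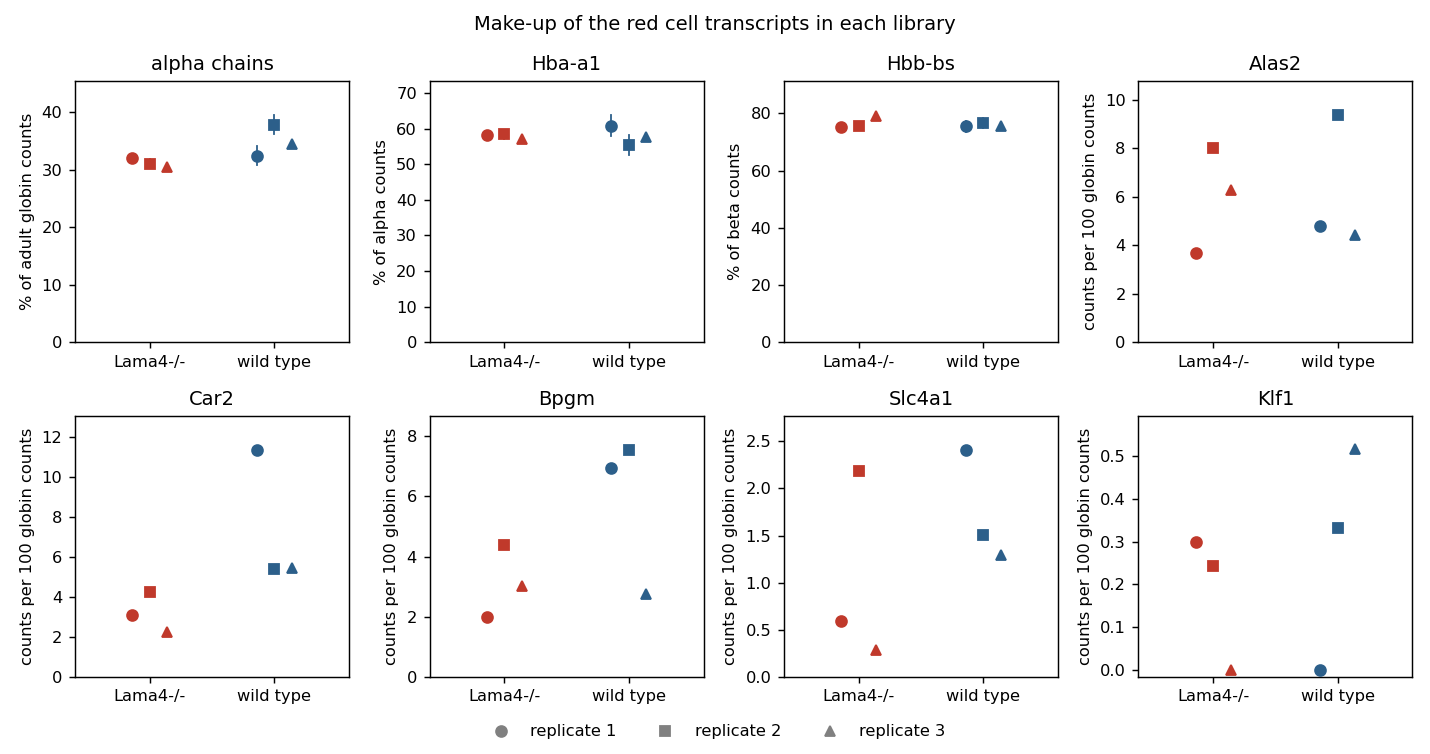
Make-up of the red cell transcripts in each library: alpha chain counts as a percentage of the 4 adult globins, the share of Hba-a1 within alpha and of Hbb-bs within beta counts, and counts of Alas2, Car2, Bpgm, Slc4a1 and Klf1 per 100 globin counts; vertical lines on the 3 percentages are 95% Wilson intervals. The 3 globin percentages lie on nearly level lines, with 75.3% to 79.0% for Hbb-bs, while Slc4a1 per 100 globin counts runs from 0.280 to 2.41.

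Slc4a1 encodes the anion exchanger that carries chloride and bicarbonate across the red cell membrane and anchors it to the skeleton. Slc4a1 (ENSMUSG00000006574, chr11:102348824-102366203, minus strand, GRCm38) had 19.6, 27.1 and 10.2 CPM in Lama4-/- replicates 1, 2 and 3, against 5.76, 8.56 and 20.3 CPM in wild type replicates 1, 2 and 3. Its highest library was Lama4-/- replicate 2, the Lama4-/- library with the least globin, and the groups overlapped. The log2 fold change was 0.71 (SE 0.59), with an edgeR adjusted p of 0.682. It was 0.36 without Lama4-/- replicate 2, 0.40 without wild type replicate 1 and 1.42 without wild type replicate 3. Per 100 globin counts there were 0.597, 2.19 and 0.280 Slc4a1 counts in Lama4-/-, against 2.41, 1.51 and 1.29 in wild type.

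Bpgm encodes bisphosphoglycerate mutase, which makes the metabolite that lowers the oxygen affinity of haemoglobin. Bpgm (ENSMUSG00000038871, chr6:34476207-34505613, plus strand, GRCm38) had 65.4, 54.3 and 109.7 CPM in Lama4-/- replicates 1, 2 and 3, against 16.6, 43.0 and 43.0 CPM in wild type replicates 1, 2 and 3. It was the only gene of the 8 whose groups did not overlap, which held for 10.3% of all tested genes in this direction and 12% in the other. The log2 fold change was 1.16 (SE 0.44), with an edgeR adjusted p of 0.334. A log2 fold change of that size or more was reached by 4.19% of tested genes. Per 100 globin counts there were 1.99, 4.38 and 3.03 Bpgm counts in Lama4-/-, against 6.95, 7.56 and 2.74 in wild type, and these values overlapped.

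Car2 encodes carbonic anhydrase II, abundant in red cells and also made by osteoclasts. Car2 (ENSMUSG00000027562, chr3:14886273-14900770, plus strand, GRCm38) had 101, 52.6 and 82.1 CPM in Lama4-/- replicates 1, 2 and 3, against 27.1, 30.8 and 85.3 CPM in wild type replicates 1, 2 and 3. Wild type replicate 3 lay above 2 of the 3 Lama4-/- libraries. The log2 fold change was 0.71 (SE 0.48), with an edgeR adjusted p of 0.600. It was 0.44 without wild type replicate 1, 0.48 without wild type replicate 2, 1.45 without wild type replicate 3, and 0.44 with a transcript-length trend removed. Per 100 globin counts there were 3.08, 4.24 and 2.26 Car2 counts in Lama4-/-, against 11.4, 5.42 and 5.44 in wild type, so that every Lama4-/- library was below every wild type library on this untested ratio. Summed over 6 osteoclast markers in the table, the level was 368, 285 and 487 CPM in Lama4-/-, against 252, 289 and 276 CPM in wild type. Most of that sum was Ctsk, a collagen-degrading protease, at 332, 229 and 459.6 CPM in Lama4-/- and 229.5, 228 and 232 CPM in wild type. Mmp9 was at 13.7 to 41.1 and 8.95 to 53.8 CPM, and the osteoclast marker Acp5 at 8.40 to 13.5 and 5.99 to 31.2 CPM. Of 4 tested osteoclast markers 3 had a log2 fold change above 0, while that of Acp5 was -0.61. Ocstamp had 0 counts in 4 libraries and Dcstamp in 5. The part of osteoclasts in the Car2 values was not tested.

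Klf1 encodes the erythroid transcription factor that switches on adult beta globin and many other red cell genes. Klf1 (ENSMUSG00000054191, chr8:84901928-84905291, plus strand, GRCm38) had 9.78, 3.01 and 0 CPM in Lama4-/- replicates 1, 2 and 3, against 0, 1.88 and 8.10 CPM in wild type replicates 1, 2 and 3. It had 0 counts in Lama4-/- replicate 3, which had the largest globin share, and in wild type replicate 1, which had the smallest. The highest library of each genotype held 163 and 105 Klf1 counts, and why those libraries held 0 was not tested. The log2 fold change was 0.35 (SE 1.97), with an edgeR adjusted p of 0.960. Its sign turned without Lama4-/- replicate 1 (-1.14) and without wild type replicate 1 (-0.23), and it was 2.24 without wild type replicate 3, so no direction is given for Klf1.

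Levels of different genes were compared per kilobase of the longest annotated transcript (RPKM). Hbb-bs averaged 2290.1 RPKM in Lama4-/- and 621 RPKM in wild type. Hba-a1 averaged 700.3 and 228 RPKM, Hba-a2 644 and 214 RPKM, and Hbb-bt 611 and 177 RPKM in Lama4-/- and wild type. Below these came Car2 with 43.9 and 26.7 RPKM, Bpgm with 34.4 and 15.4 RPKM, Slc4a1 with 4.17 and 2.54 RPKM, and Klf1 with 2.79 and 2.18 RPKM, again Lama4-/- before wild type. The order of the 8 means was the same in both genotypes. Hba-a1, Hba-a2 and Hbb-bt differed from each other by less than the SD between libraries of a genotype, as did Slc4a1 from Klf1. Car2 and Bpgm did so in Lama4-/-, while in wild type their difference was larger than the SD of Bpgm.

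The calls on these genes differed between tools. The 4 genes with an unadjusted p under 0.05 in edgeR were Hbb-bs, Hbb-bt, Hba-a1 and Bpgm. DESeq2 called Hbb-bs higher, with an adjusted p of 0.0461. DESeq2's adjusted p was 0.0641 for Hbb-bt, 0.109 for Hba-a1, 0.136 for Hba-a2 and 0.132 for Bpgm. The authors' deposited table, also from DESeq2 but with shrunken fold changes, lists Hbb-bs with a log2 fold change of 1.43 (SE 0.46) and an adjusted p of 0.0364. The authors' deposited table calls 1.88% of its genes with an adjusted p as higher, and lists Hbb-bt at an adjusted p of 0.051, Hba-a1 at 0.0869, Bpgm at 0.104 and Hba-a2 at 0.108.

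The globin estimates moved most without wild type replicate 3, the wild type library with the most globin. Without it the log2 fold change was 2.88 for Hbb-bs, 2.84 for Hbb-bt, 2.58 for Hba-a1 and 2.52 for Hba-a2, each with an edgeR adjusted p of 0.615. Leaving out wild type replicate 1, the library with the least globin, gave 1.47, 1.37, 1.19 and 1.14 for the same genes. The 4 globins stayed above 0 in every alternative run.

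**Figure D3:**
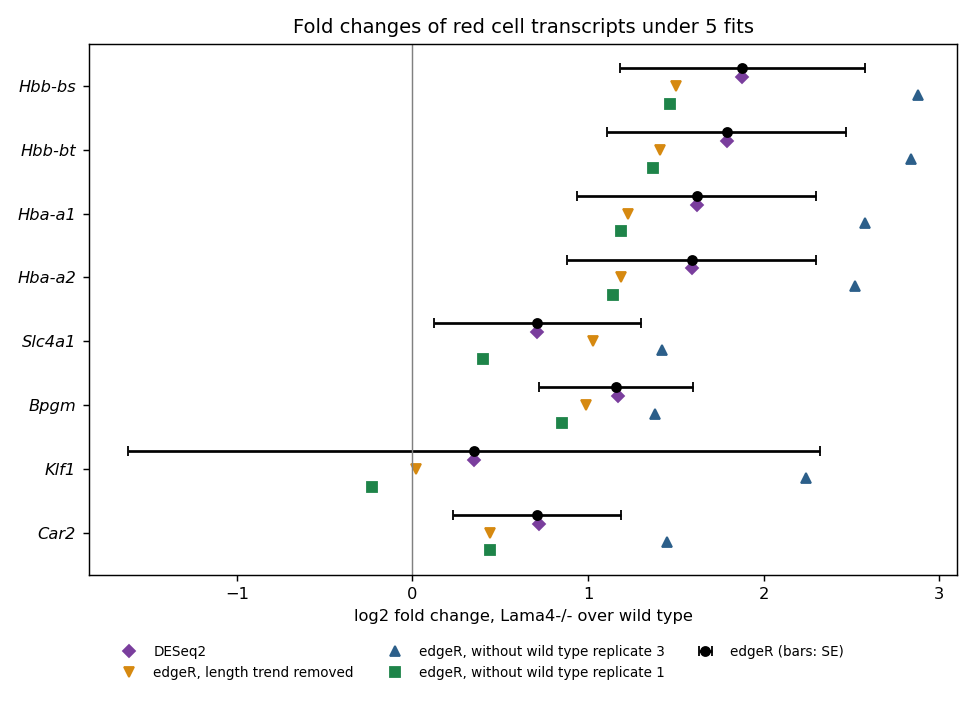
Log2 fold change, Lama4-/- over wild type, of the 8 measured genes in edgeR (black, with its SE), in DESeq2, with the length trend removed, and without wild type replicate 3 or 1. The globins lie between 1.14 and 2.88 in these fits, and Klf1 crosses 0.

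Few tested genes had a fold change as large as the globins. A log2 fold change of at least 1.59, that of the lowest globin, was reached by 281 of 14465 tested genes, or 1.94%. The globins were not the largest among blood cell genes: a list of 12 neutrophil granule genes had a median of 2.88, against 1.7 for the 4 globins. Short transcripts were on balance higher in Lama4-/- than long ones: the median log2 fold change was 0.34 for 1388 genes with transcripts under 1000 bases, 0.23 for 5461 genes from 1000 to 3000 bases and -0.39 for 7614 longer genes. The globin transcripts have 554 to 703 bases. Among the 1388 short transcripts, 33 (2.38%) reached the lowest globin's fold change. With the length trend removed, the log2 fold change was 1.5 for Hbb-bs, 1.41 for Hbb-bt, 1.23 for Hba-a1 and 1.19 for Hba-a2, with edgeR adjusted p from 0.635 to 0.742.

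The promoters of the globins that varied together are shown from RefSeq (GRCm38.p6), which had promoters of 6 of the genes and none of Slc4a1, Car2 or Ahsp. Each line gives the 130 bases before the RefSeq start, 5′ to 3′ on the gene's strand, with matches to the searched motifs in capitals. For all 6 genes the GENCODE gene begins farther upstream than the RefSeq start, for Hba-a2 by only a few bases.
Hbb-bs, chr7:103827929-103828058, minus strand: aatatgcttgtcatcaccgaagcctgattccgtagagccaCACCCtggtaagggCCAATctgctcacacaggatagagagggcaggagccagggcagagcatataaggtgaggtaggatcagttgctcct
Hbb-bt, chr7:103813924-103814053, minus strand: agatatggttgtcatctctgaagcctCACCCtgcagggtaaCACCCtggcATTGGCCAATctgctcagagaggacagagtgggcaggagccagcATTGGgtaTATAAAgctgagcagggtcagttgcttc
Hba-a2, chr11:32296362-32296491, plus strand: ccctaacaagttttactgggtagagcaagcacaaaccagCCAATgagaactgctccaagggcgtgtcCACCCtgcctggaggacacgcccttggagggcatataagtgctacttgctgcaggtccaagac
The Hba-a1 window holds an identical run of 247 of the 250 bases searched in Hba-a2. The motifs were CACCC, the core of the sites bound by Klf1, AGATAA and TGATAA, sites of the GATA family, and CCAAT and TATAAA of the basal promoter, each searched on both strands in the 250 bases before the start. CACCC was in 5 of the 6 promoters, all but Bpgm, and in 52% of 32851 promoters of the same length. CCAAT was in all 6 and in 33.8% of promoters. TGATAA was in 3, those of Hba-a1, Hba-a2 and Klf1, and in 7.94% of promoters. AGATAA was in Hbb-bs and in 9.99% of promoters, and TATAAA in Hbb-bt and in 12.4%. A match is a string of letters and not evidence of binding.

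5 further lists of red cell genes were divided in their direction. Of their 68 names 61 were in the table and 52 were tested. 35 of the 52 (67.3%) had a log2 fold change above 0, against 48% of all tested genes, and the median was 0.32, against -0.04 over all tested genes and 1.38 over the 8 measured genes. In edgeR 0 of the 52 passed the adjusted threshold in either direction, with 4 higher and 1 lower at an unadjusted p under 0.05, and DESeq2 called 1 higher and 0 lower. In 8 of the 52 every Lama4-/- library was above every wild type library, as for 10.3% of all tested genes, and in 4 every Lama4-/- library was below, as for 12%. The lists were chosen with results of these data known.

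In the list of haem synthesis and iron supply 9 of 13 tested genes were above 0, with a median of 0.35. Alas2, the erythroid enzyme of the committed step of haem synthesis, had 120.1, 99.1 and 228 CPM in Lama4-/- replicates 1, 2 and 3, against 11.4, 53.3 and 69.2 CPM in wild type replicates 1, 2 and 3, without overlap. Its log2 fold change was 1.74 (SE 0.63), with an edgeR adjusted p of 0.328. Alad, the next enzyme of the pathway, had 74.0, 56.9 and 62.7 CPM in Lama4-/-, against 17.7, 17.8 and 26.9 CPM in wild type; DESeq2 called it higher (adjusted p = 8.03e-05) and edgeR did not (adjusted p = 0.237). It is named because it was the only gene of the lists that DESeq2 called, and Ppox and Slc25a37 because their groups did not overlap: the haem enzyme Ppox was above wild type in every Lama4-/- library, and Slc25a37, the mitochondrial iron importer of erythroid cells, was below in every one. Fech, which inserts the iron, averaged 105 ± 41.4 CPM in Lama4-/- and 83.1 ± 27.9 CPM in wild type, Urod 56.5 ± 15.4 and 40.5 ± 2.97 CPM, and the transferrin receptor Tfrc 32.3 ± 14.8 and 57.6 ± 14.7 CPM (SD, n = 3 each).

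Alas2 kept a steadier ratio to the globins than Bpgm, Car2 or Slc4a1 did. Per 100 globin counts there were 3.66, 8.0 and 6.28 Alas2 counts in Lama4-/- replicates 1, 2 and 3, against 4.79, 9.36 and 4.41 in wild type replicates 1, 2 and 3. That ratio spanned 2.55-fold over the 6 libraries, against 3.79-fold for Bpgm, 5.02-fold for Car2 and 8.60-fold for Slc4a1.

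In the membrane and skeleton list 10 of 17 tested genes were above 0, with a median of 0.05. Without wild type replicate 3, or with the length trend removed, that median was 0.75. Its most abundant genes were Slc2a1, a glucose transporter, at 135 ± 38.0 CPM in Lama4-/- and 180.5 ± 28.05 CPM in wild type, the water channel Aqp1 at 83.3 ± 10.1 and 99.8 ± 28.7 CPM, the glycophorin Gypc at 42.2 ± 17.98 and 52.8 ± 10.7 CPM, and the skeleton protein Epb41 at 30.2 ± 11.7 and 29.9 ± 13.7 CPM. Slc2a1 and Aqp1 are also made in many other cell types. The blood group gene Rhd was the only gene of this list above wild type in every Lama4-/- library.

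Of the erythroid transcription factors and the erythropoietin receptor, 8 of 12 were tested and 6 were above 0, with a median of 0.34. The abundant ones are not restricted to red cells: Ldb1 averaged 44.6 ± 15.3 CPM in Lama4-/- and 43.6 ± 4.72 CPM in wild type, and Zbtb7a 31.0 ± 5.45 and 43.9 ± 0.357 CPM. Lmo2 averaged 11.5 ± 4.99 and 6.60 ± 4.40 CPM, and the receptor Epor 6.81 ± 2.42 and 4.23 ± 2.72 CPM. Gata1, which defines the erythroid and megakaryocyte lineages, had 0, 2.78 and 0 CPM in Lama4-/- replicates 1, 2 and 3, against 0, 0 and 1.08 CPM in wild type replicates 1, 2 and 3. It was thus at 0 in 4 of 6 libraries, among them both with the largest globin share, and did not pass the filter on low counts.

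Of the enzymes and maturation genes, 10 of 14 tested were above 0, with a median of 0.34. The antioxidant enzyme Prdx2 averaged 215 ± 41.4 CPM in Lama4-/- and 139 ± 43.7 CPM in wild type, with a log2 fold change of 0.63 and an edgeR adjusted p of 0.409. Mkrn1, a ubiquitin ligase, averaged 93.9 ± 8.78 and 66.8 ± 13.6 CPM without overlap, with a log2 fold change of 0.49 and an edgeR adjusted p of 0.411. Catalase, Cat, averaged 63.0 ± 4.53 and 56.6 ± 11.5 CPM, and the nuclease Isg20 43.8 ± 13.5 and 38.3 ± 9.51 CPM. Of the other globins, 3 of 9 names were in the table and none was tested. The embryonic alpha-like gene Hba-x was counted in 1 library, Lama4-/- replicate 2, at 0.602 CPM, and Hbq1a and Hbq1b stayed at or below 3.16 CPM.

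**Figure D4:**
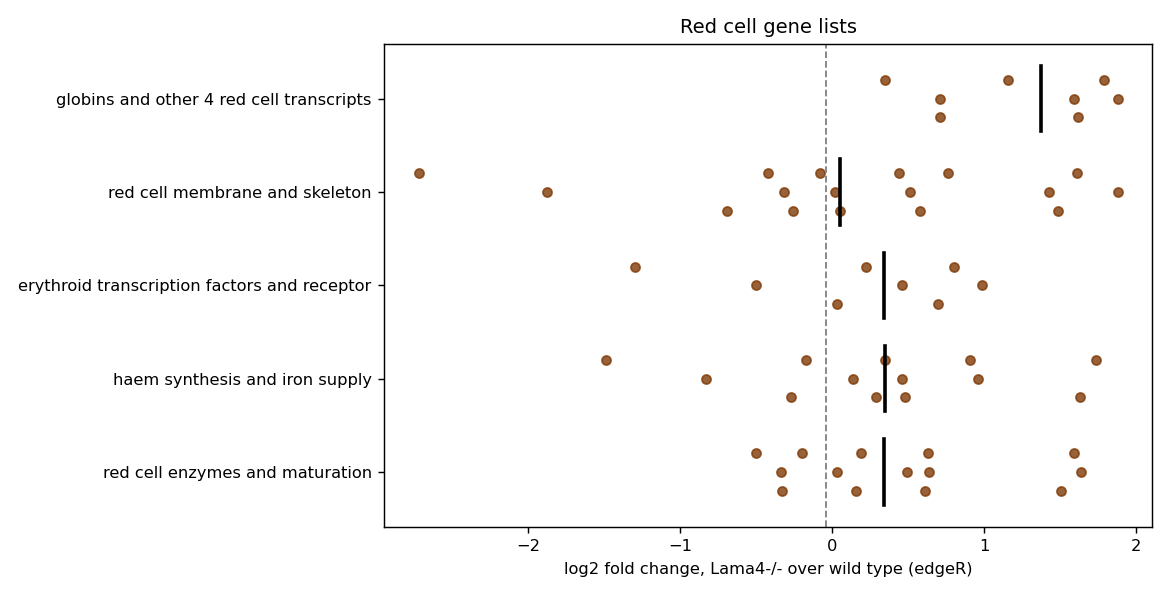
Log2 fold change, Lama4-/- over wild type, of each tested gene of the 8 measured genes and of the 4 further red cell lists that had tested genes, with a black bar at the median of each list and a dashed line at the median of all tested genes (-0.04). The 8 measured genes lie to the right of 0, with a median of 1.38, and the lists spread to both sides, with medians from 0.05 to 0.35.

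The genes most like the globins in their pattern over the 6 libraries were taken from 10642 candidates by the mean absolute difference between centred log2 CPM and that of the 4 globins summed. Closest was Rsad2, an interferon-induced antiviral protein, with a difference of 0.17. Rsad2 had 56.9, 27.5 and 54.6 CPM in Lama4-/- replicates 1, 2 and 3, against 3.96, 9.25 and 33.3 CPM in wild type replicates 1, 2 and 3. Gm37494 (0.42), Alas2 (0.42) and the membrane-skeleton gene Frmd3 (0.44) were also among the 5 nearest. On the same measure Car2 was at 0.59, Bpgm at 0.64, Slc4a1 at 0.95 and Klf1 at 1.28. These 4 were left out of the candidates and so have no rank among them. The measure describes 6 libraries and carries no test.

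Markers of other blood cells were read beside the globins. All 12 neutrophil granule genes were tested and had a log2 fold change above 0, 5 of them at an unadjusted p under 0.05 in edgeR, where 4.45% of all tested genes were higher. In edgeR 0 passed the adjusted threshold, and DESeq2 called 4 higher, where it called 0.996% of genes higher. The sum of the 12 was 741, 728 and 93.5 CPM in Lama4-/- replicates 1, 2 and 3, against 106, 31.2 and 118 CPM in wild type replicates 1, 2 and 3. S100a9, a calcium-binding protein of neutrophils, had 259.8, 169 and 37.3 CPM in Lama4-/-, against 44.3, 5.99 and 30.7 CPM in wild type, and S100a8 had 155, 116 and 27.7 CPM, against 22.7, 5.99 and 18.98 CPM. Of the defining genes, Elane was at 0 in Lama4-/- replicate 1 and wild type replicate 3, Mpo at 0 in Lama4-/- replicate 3, and Ltf at 0 in Lama4-/- replicate 3 and wild type replicate 2. The library with the most globin, Lama4-/- replicate 3, had a neutrophil sum within the wild type range. Lama4-/- replicate 2, with the least globin of its genotype, had a sum near the highest. The highest neutrophil sum was in Lama4-/- replicate 1, with a globin share of 0.349%. Among wild type libraries, replicate 3 had both the most globin and the highest neutrophil sum.

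The summed megakaryocyte and platelet genes were at 23.2, 10.9 and 8.64 CPM in Lama4-/- replicates 1, 2 and 3, against 25.1, 25.0 and 38.6 CPM in wild type replicates 1, 2 and 3, with 0 of 4 tested genes above 0. Ppbp, a platelet chemokine, was at 2.71 to 4.68 CPM in Lama4-/- and 4.97 to 15.8 CPM in wild type, and Itgb3, a platelet integrin chain, at 0 to 6.02 and 3.44 to 17.2 CPM. Itgb3 made up 14.4 and 17.2 CPM of the sum in wild type replicates 2 and 3. Of the 4 tested genes only Ppbp was lower in every Lama4-/- library, as for 12% of all tested genes. Pf4 overlapped and was highest, at 6.66 CPM, in Lama4-/- replicate 1. Gp9, which was not tested, was at 0 to 3.34 CPM in Lama4-/- and 0 to 0.598 CPM in wild type. The macrophage sum was 19.7, 38.4 and 25.2 CPM in Lama4-/-, against 14.96, 15.2 and 31.3 CPM in wild type, with 4 of 6 tested genes above 0. Of the macrophage genes, Cd68 was at 3.96 to 11.7 CPM in Lama4-/- and 4.62 to 15.2 CPM in wild type. C1qb was at 3.60 to 12.4 and 1.77 to 3.44 CPM, and Mrc1 at 0 in every library but Lama4-/- replicate 1. Adgre1, which marks the macrophages of erythroblast islands, was at 0 to 0.150 CPM in Lama4-/-. In wild type replicates 1, 2 and 3 Adgre1 had 0.0748, 0.514 and 8.18 CPM, and it did not pass the filter on low counts. B cell genes summed to 3.30 to 14.7 CPM in Lama4-/- and 1.42 to 4.47 CPM in wild type, with Cd74 at 3.30 to 13.7 and 1.42 to 2.47 CPM, and Cd79a at 0 in 4 of 6 libraries. Endothelial genes summed to 1.14 to 3.23 CPM in Lama4-/- and 7.53 to 11.6 CPM in wild type. Erg was at 0.960 to 2.61 and 2.02 to 4.55 CPM, and Pecam1 at 0.0600 to 0.752 and 1.39 to 2.05 CPM. Cdh5, Tek and Tie1 did not pass the filter on low counts and were at 0 in every Lama4-/- library. In wild type replicates 1, 2 and 3 Cdh5 had 0.897, 0.342 and 2.24 CPM. Tek had 1.65, 0 and 0 CPM there, and Tie1 0.897, 0 and 1.77 CPM. The part of any of these cells in the globin values was not tested, and neither was the source of the globin RNA in a sort that excluded TER119.

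**Figure D5:**
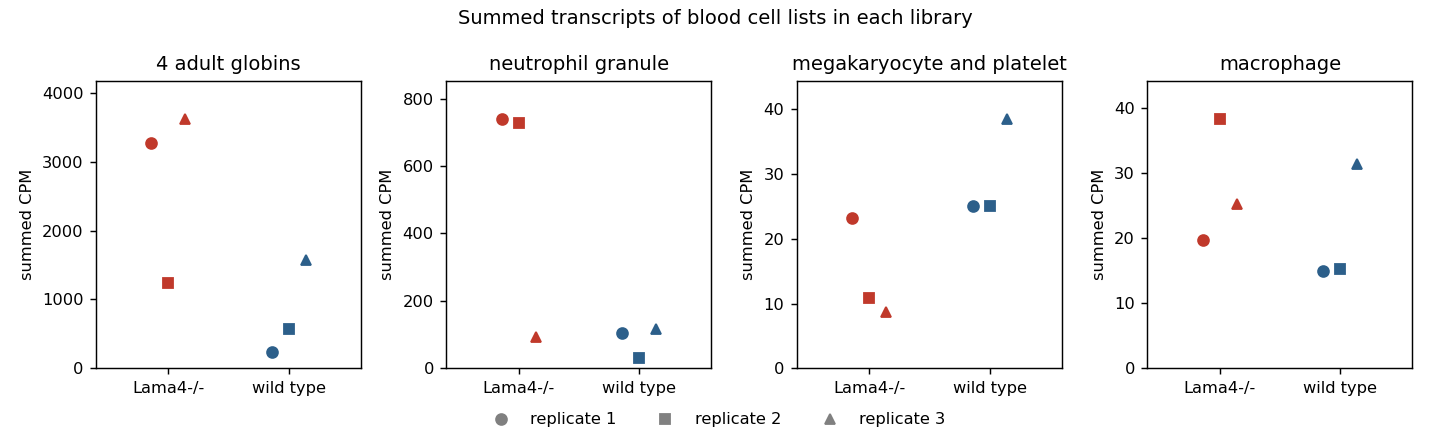
Summed CPM of the 4 adult globins and of the neutrophil granule, megakaryocyte and platelet, and macrophage lists in each library, with symbols for the replicate number. The globin sum is highest in Lama4-/- replicate 3 (3626 CPM), where the neutrophil sum is 93.5 CPM. It is next highest in Lama4-/- replicate 1 (3277 CPM), where the neutrophil sum is 741 CPM. The megakaryocyte and platelet sum is below wild type in all 3 Lama4-/- libraries. Itgb3 gives 14.4 and 17.2 CPM of that sum in wild type replicates 2 and 3.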

How the data were processed

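RNA of the sorted cells was made into cDNA with the SMART-Seq v4 kit, which does not mark strand, and into Nextera XT libraries, then sequenced from 1 end over 75 bases, per the labels' protocols. The labels do not say which library ran on which of the sequencers used, so a difference between sequencers could not be modelled. The submitters' processing notes list the builds GRCm38 and mm10, with STAR 2.6.1d, Subread with featureCounts, DESeq2, MultiQC 1.7 and FastQC 0.11.8. The authors deposited 1 table. Its block headed as normalized holds whole numbers in 100% of cells and was used as the deposited raw gene counts; 6 per-library columns headed as raw were not used. Its log2 fold changes, with their standard errors, and its p-values are the authors' deposited DESeq2 results with a beta prior, per the file headers; 15311 of the deposited adjusted p-values are NA and were left so.

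Positions and transcript lengths are from GENCODE M21 (GRCm38), which held 99.9% of the identifiers. Libraries were compared in R 4.3.3 with edgeR 4.0.16: filterByExpr by genotype (14465 genes kept), TMM scaling, robust quasi-likelihood F test, 3 libraries against 3 without covariates, Benjamini-Hochberg adjustment over all tested genes, threshold 0.05. The SE was taken from the fold change and its F statistic. The common dispersion was 0.393. No pair of libraries within a genotype matched within counting noise (lowest chi-square per gene 42.6). Alternatives were DESeq2 1.42.0, limma 3.58.1 voom with quality weights, other scalings and filters, the replicate number as a block, removal of a length trend (lowess, span 0.3), and each library left out. Procedures were tested on simulated data.

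Named genes were all 9 chosen genes, Lama4, genes of the sort gate, the 4 most abundant tested genes of each red cell list, the 2 most abundant of each marker list and the 5 nearest in pattern; some of these genes are not reported here. Other genes in the text, such as Alad, Rhd, Gata1 and markers given for being at or near 0, were chosen after their values were seen. The genes and lists were chosen with earlier results of these data known.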

Additional observations from a re-analysis of the deposited data

How the results depend on the processing

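Under other settings 124 values of the 8 genes kept their direction and their side of the threshold, and 3 did not. DESeq2 put Hbb-bs past it (log2 fold change 1.88, adjusted p = 0.0461). Klf1 turned to -1.14 without Lama4-/- replicate 1 and to -0.23 without wild type replicate 1, ranged from -1.14 to 2.24 over the libraries left out, and was not tested with a filter of 5 CPM in 3 libraries. The number of genes past the threshold, 1 in edgeR, was 0 with upper-quartile scaling, voom, no robust moderation, the replicate block and the length trend removed, and 0 to 1 with 1 library left out. It was 12 without a filter and 722 in DESeq2 (164 higher, 558 lower). At an unadjusted p under 0.05 the edgeR test had 644 genes higher and 1207 lower, 988 and 967 with upper-quartile scaling, which moved the median of all genes to 0.06, against -0.04, and 716 and 457 with the length trend removed. With the replicate number as a block, Hbb-bs had a log2 fold change of 2.09 (edgeR adjusted p = 0.302) and no call on the 8 genes changed; same-numbered libraries had correlations of 0.0400, 0.132 and 0.0539 of their deviations from the group mean, each library correlating best with its own number, which is a hint from the data and not part of the design. The globin share over the libraries left out was 0.238% to 0.352% in Lama4-/- and 0.0388% to 0.102% in wild type. Of the red cell list genes, 35 of 52 were above 0, against 26 of 39 with a filter of 5 CPM, 41 of 61 without a filter, 30 of 52 with voom, 31 of 52 with the replicate block, 39 of 52 with the length trend removed, and 30 of 55 without Lama4-/- replicate 1 to 37 of 52 without wild type replicate 3. Klf1 and Gata1 had 0 counts in 2 and 4 libraries. The shallowest library, wild type replicate 2, held 11 Klf1 counts, and why other libraries held 0 was not tested.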
